A study of Mus musculus with 16 samples.

Results

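Integrins are paired alpha and beta chains that span the cell membrane and hold a cell to the proteins of its surrounding matrix. Inside the cell talin binds the beta chain tail and switches the receptor on, vinculin links talin to actin, and integrin-linked kinase (Ilk) and focal adhesion kinase (Ptk2) carry the signal onward. In heart muscle these proteins sit in costameres, the rib-like sites over the Z-discs where force passes between the contractile apparatus and the matrix, and integrins are known as sensors of mechanical load there. 10 genes were chosen by symbol: the beta subunits Itgb1 and Itgb5, the alpha subunits Itga5, Itga6, Itga7 and Itgav, and Ilk, vinculin (Vcl), talin 1 (Tln1) and Ptk2. No probe set carried Ptk2 as its only symbol in the annotation used, so that gene was not analysed here. The other 9 genes had 28 of the 45101 probe sets, each assigned to that symbol alone.

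The RNA came from the left ventricle of mice in 4 groups of 4 arrays each, on Affymetrix whole-genome mouse arrays. PPARalpha-/- mice had 28 days of TAC (KO TAC) or a sham operation (KO sham), and wild-type mice had 28 days of TAC (WT TAC) or a sham operation (WT sham). TAC is transverse aortic constriction, a surgical narrowing of the aorta that raises the pressure against which the left ventricle pumps, and PPARalpha is a nuclear receptor that drives fatty acid oxidation genes. Strain, sex, age and the tissue the deletion covers are not given in the labels, nor is it stated that each array held a separate animal, and the p-values therefore describe array-to-array spread, which may be partly technical. The design asks how the loss of PPARalpha alters cardiac gene expression at baseline and under sustained load.

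Ppara itself separated the genotypes on each of its 3 probe sets. On the probe set 1457721_at the mean log2 signal was 8.84 ± 0.21 in KO TAC and 9.26 ± 0.21 in KO sham hearts, against 10.76 ± 0.29 in WT TAC and 10.96 ± 0.26 in WT sham hearts (SD, n = 4 each). The median signal of an array lay between 108.3 and 163.0. Averaged over the arrays of the same group, the correlation of an array's log2 signals ran from 0.9398, for WT TAC replicate 3, to 0.9686. The mean log2 signal of 9 hybridisation spike-in probe sets was 12.5486 to 13.2247 on KO TAC arrays, 12.9543 to 13.4205 on KO sham, 13.1954 to 13.6764 on WT TAC and 12.8894 to 13.0751 on WT sham arrays, and the 3 arrays farthest from the median were the third WT TAC array and the KO TAC arrays numbered 2 and 3. Each of the 7 cardiomyocyte markers reached a signal of at least 100 on at least 1 array, and their summed signal lay between 372395.6 and 688550.5 over the arrays.

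The stretch just upstream of a gene's start is where transcription factors most often meet the gene, so it is shown for 4 of the genes the results turn on: Tln1 and Itgav, which had the smallest p-values of the 9 in both KO TAC comparisons, Itgb1, of which 1 probe set was called, and Vcl, whose brightest probe set gave differences near 0. RefSeq promoters of build GRCm38.p6 held entries for 7 of the 9 genes (none for Itga6 or Itga7), and the 250 bases before the start are printed 5′ to 3′ in the direction of the gene. They lie at chr4:43562584-43562833 (minus strand) for Tln1, chr2:83724147-83724396 (plus strand) for Itgav, chr8:128685404-128685653 (plus strand) for Itgb1 and chr14:20929148-20929397 (plus strand) for Vcl. Capitals mark matches, on either strand, to one of 6 motifs named after the sequences.
Tln1: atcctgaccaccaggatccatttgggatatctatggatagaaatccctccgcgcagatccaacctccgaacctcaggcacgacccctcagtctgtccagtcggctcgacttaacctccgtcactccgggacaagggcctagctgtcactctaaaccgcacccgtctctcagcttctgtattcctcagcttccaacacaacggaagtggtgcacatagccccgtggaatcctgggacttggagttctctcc
Itgav: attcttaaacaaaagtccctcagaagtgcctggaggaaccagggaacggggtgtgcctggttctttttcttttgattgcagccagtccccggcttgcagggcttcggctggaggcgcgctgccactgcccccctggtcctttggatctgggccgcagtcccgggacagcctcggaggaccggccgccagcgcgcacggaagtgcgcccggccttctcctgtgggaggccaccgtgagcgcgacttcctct
Itgb1: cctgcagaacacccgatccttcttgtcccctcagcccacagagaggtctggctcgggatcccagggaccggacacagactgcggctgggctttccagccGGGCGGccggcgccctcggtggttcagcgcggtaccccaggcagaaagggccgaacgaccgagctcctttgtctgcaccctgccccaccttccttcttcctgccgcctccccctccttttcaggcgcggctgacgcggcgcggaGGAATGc
Vcl: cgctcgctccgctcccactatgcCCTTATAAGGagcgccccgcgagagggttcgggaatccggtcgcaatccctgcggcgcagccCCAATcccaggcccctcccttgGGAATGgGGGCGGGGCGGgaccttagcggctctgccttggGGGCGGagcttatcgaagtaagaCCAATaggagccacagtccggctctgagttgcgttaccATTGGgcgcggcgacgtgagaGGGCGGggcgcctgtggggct

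The GC box, bound by the Sp1 family, was searched as GGGCGG, and the box bound by NF-Y as CCAAT. The M-CAT element of TEAD factors was searched with the letters CATTCC. The AP-1 site was searched with the letters TGANTCA, where N is any base. The half-site of nuclear receptors, the family PPARalpha belongs to, was searched with the letters AGGTCA. The CArG box of serum response factor, given by name only, was the last motif, and the CArG box and M-CAT element are both known from muscle genes. In these windows Tln1 and Itgav held no match, and Itgb1 held 1 GC box and, 7 bases before the start, 1 M-CAT element. Vcl held 4 GC boxes, of which 2 overlap, 3 CCAAT boxes, 1 M-CAT element and 1 CArG box 227 bases before the start.  Of the others, Itga5 held 2 GC boxes and Itgb5 held 3, and the second of 2 listed starts of Ilk held 3. None of the 7 genes had an AP-1 match or a nuclear receptor half-site in these windows. Among all 32851 promoters of the same length, 32.7% held a GC box, 33.8% a CCAAT box, 1.47% a CArG box, 12.6% an M-CAT element, 6.75% an AP-1 match and 14% a half-site. GC content was 55.6% for Tln1, 64.4% for Itgav, 68.0% for Itgb1 and 67.2% for Vcl, against a median of 52.4% over all promoters. Matches of this length are descriptions of letters only.

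In hearts lacking PPARalpha, TAC went with somewhat higher signals of talin 1 and of the integrin chains Itgav, Itga6, Itgb1 and Itga5, by 1.28-fold to 1.48-fold over KO sham, while Vcl, Itga7 and Itgb5 stayed close to their KO sham levels. None of the 9 genes passed an adjusted p of 0.05 in limma, over 10916 genes tested, in any of the 4 comparisons or in the interaction. Smallest was the adjusted p of Tln1, 0.082 against KO sham and 0.086 against WT TAC. In wild-type hearts the largest estimate between TAC and sham on the brightest probe sets was 1.17-fold, for Itga6. A second Tln1 probe set, 1436042_at, gave log2 differences between TAC and sham of 0.304 in wild-type and 0.259 in KO hearts. Signals below are in the scaled units of the array software, from the brightest probe set of each gene, and can be compared between arrays but not between genes.

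**Figure D1:**
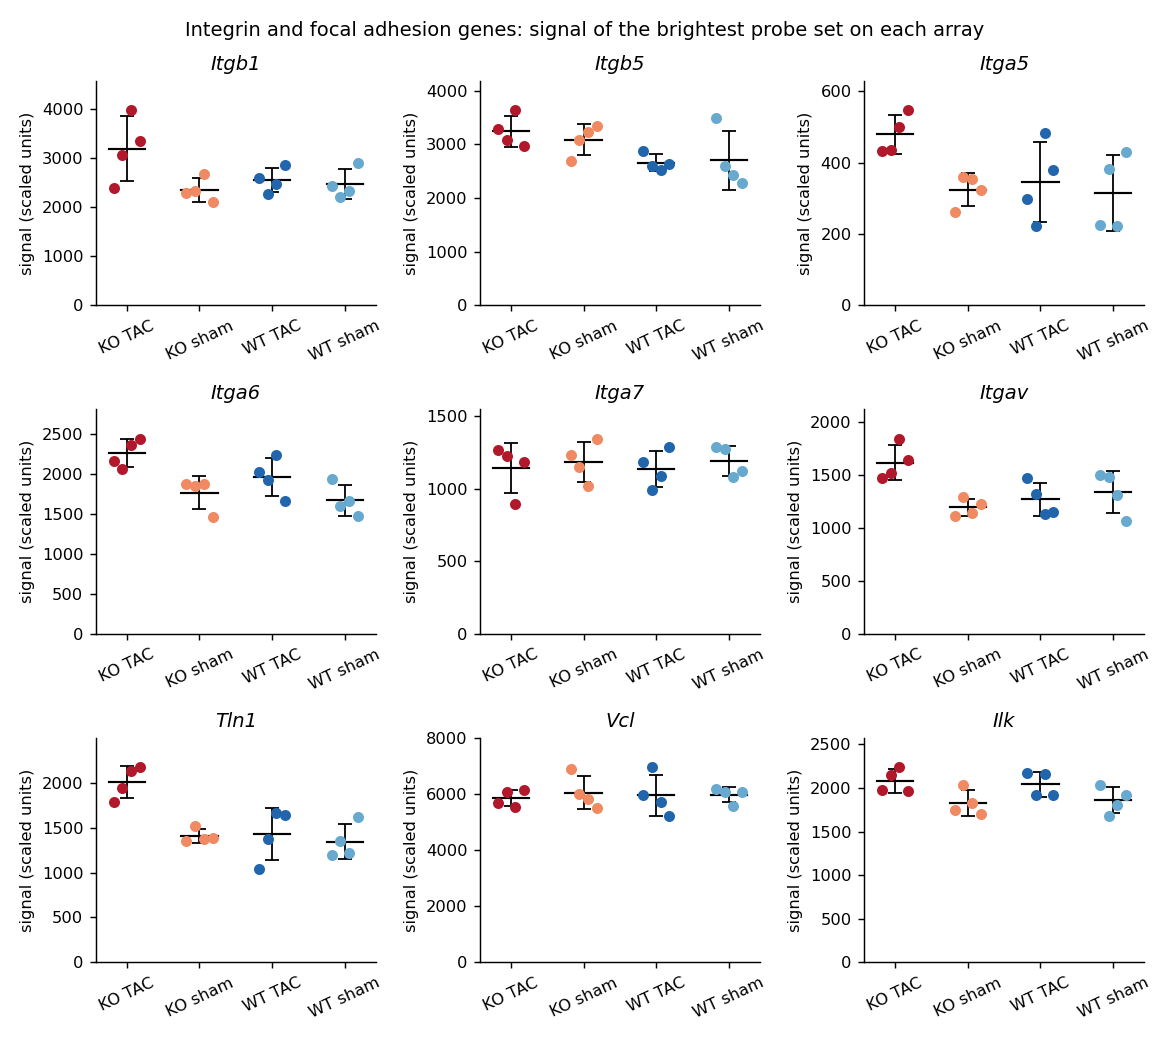
Signal (scaled units, linear axis from 0) of the brightest probe set of each of the 9 genes on every array, by group; dots are arrays, bars the mean ± SD of 4 arrays. The 4 KO TAC dots of Tln1 (1789.7 to 2171.5) lie above all 12 others, while the groups of Vcl and Itga7 lie at the same height.

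Talin 1, the adaptor that activates integrins, had signals of 1789.7, 1945.9, 2133.9 and 2171.5 in KO TAC hearts, against 1349.6, 1519.8, 1369.9 and 1379.1 in KO sham hearts. In WT TAC hearts they were 1038.2, 1368.3, 1662.9 and 1645.3, against 1191.9, 1350.8, 1216.1 and 1619.6 in WT sham hearts. Every KO TAC array was therefore above the other 12 arrays, which held for none of the other 8 genes and for 167 of all genes tested (1.53%). The log2 fold change of KO TAC over KO sham was 0.515 ± 0.146 (SE), or 1.43-fold, with a 95% interval of 0.203 to 0.826. Against WT TAC it was 0.513 ± 0.146, again 1.43-fold. Both contrasts share the KO TAC arrays, so they are not separate evidence. WT TAC over WT sham gave 0.07 ± 0.15 and KO sham over WT sham also 0.07 ± 0.15. The difference between the TAC effects of the genotypes, tested as an interaction, was 0.44 ± 0.21, with an unadjusted p of 0.0497 and a limma adjusted p of 0.482.

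Vinculin, which couples talin to actin filaments, had 5687.4, 6094.3, 5556.0 and 6143.0 in KO TAC hearts, against 6892.2, 6009.1, 5842.9 and 5517.2 in KO sham hearts. Its WT TAC signals were 5972.8, 6968.6, 5740.1 and 5217.1, against 6196.6, 6097.9, 5584.4 and 6085.4 in WT sham hearts. All 4 groups overlapped. The log2 difference of KO TAC from KO sham was -0.04 ± 0.10, with a 95% interval of -0.262 to 0.175 (0.834-fold to 1.13-fold). Integrin-linked kinase, a scaffold that binds the beta 1 tail with PINCH and parvin, had 1973.5, 2146.8, 2236.5 and 1960.0 in KO TAC hearts, against 1746.4, 2033.1, 1827.0 and 1705.6 in KO sham hearts. In WT TAC hearts Ilk had 2165.2, 1914.1, 2162.0 and 1923.6, against 2036.1, 1682.4, 1804.9 and 1915.3 in WT sham hearts. Within each genotype the TAC signals lay mostly in the upper part of the range but overlapped those of sham, with log2 differences of 0.19 ± 0.10 in KO hearts (adjusted p 0.361) and 0.14 ± 0.10 in WT hearts (adjusted p 0.78).

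Itgb1, the beta 1 chain and the partner of most matrix-binding alpha chains in cardiac muscle, had signals of 2384.4, 3071.9, 3972.9 and 3349.3 in KO TAC hearts, against 2288.3, 2326.7, 2677.7 and 2113.6 in KO sham hearts. In WT TAC hearts they were 2588.0, 2273.7, 2482.5 and 2850.7, against 2429.7, 2217.0, 2325.2 and 2903.7 in WT sham hearts. 3 of the 4 KO TAC arrays were above all others, and KO TAC replicate 1 lay among the KO sham values. The log2 difference was 0.42 ± 0.15 from KO sham (adjusted p 0.15) and 0.31 ± 0.15 from WT TAC (adjusted p 0.307). Without KO TAC replicate 1 the difference from KO sham was 0.556, and it passed the test with an adjusted p of 0.0407. Without KO TAC replicate 3 it was 0.311 from KO sham and 0.194 from WT TAC. Without the 3 arrays with outlying spike-ins it was 0.27 ± 0.17 and 0.143 ± 0.177, and with spike-in signal added to the model it was 0.234 ± 0.148 and 0.039 ± 0.168, with no call.

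Itgb5, the beta 5 chain, pairs with the alpha v chain as a vitronectin receptor. It had 3280.7, 3090.3, 3634.2 and 2966.7 in KO TAC hearts, against 2696.7, 3087.2, 3228.2 and 3346.9 in KO sham hearts. WT TAC hearts had 2884.4, 2596.0, 2520.5 and 2626.7, against 3493.0, 2598.2, 2428.1 and 2282.0 in WT sham hearts. On this probe set, 1456133_x_at, KO TAC overlapped KO sham but lay wholly above WT TAC. Its log2 difference was 0.07 ± 0.13 from KO sham and 0.29 ± 0.13 from WT TAC (adjusted p 0.28), and KO sham was 0.21 ± 0.13 above WT sham (adjusted p 0.712), so in both genotype comparisons the KO mean was the higher one.

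Among the alpha chains, Itgav, whose product alpha v binds RGD motifs in vitronectin and fibronectin, had 1472.5, 1514.3, 1838.4 and 1634.4 in KO TAC hearts, against 1113.8, 1292.2, 1141.0 and 1222.7 in KO sham hearts. WT TAC hearts had 1467.3, 1317.5, 1129.6 and 1151.8, against 1500.7, 1475.7, 1309.3 and 1063.7 in WT sham hearts. KO TAC arrays were above all KO sham and all WT TAC arrays, and reached down into the WT sham range. The log2 difference was 0.435 ± 0.127 from KO sham (1.35-fold, adjusted p 0.0917) and 0.35 ± 0.13 from WT TAC (1.28-fold, adjusted p 0.174). In wild-type hearts the TAC mean was below the sham mean by a log2 difference of -0.07 ± 0.13. The interaction was 0.51 ± 0.18, the largest estimate of the 9 genes, with an unadjusted p of 0.0128 and an adjusted p of 0.387.

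Itga5, the alpha 5 chain of the fibronectin receptor, had 434.0, 436.3, 499.7 and 546.9 in KO TAC hearts, against 260.7, 359.7, 354.9 and 322.3 in KO sham hearts. WT TAC hearts had 298.4, 223.1, 484.4 and 379.6, against 225.9, 381.9, 224.1 and 430.6 in WT sham hearts. The KO groups did not overlap, and both WT groups scattered widely, with SDs of 0.48 and 0.50 log2 units in TAC and sham hearts. The log2 difference was 0.57 ± 0.25 from KO sham (1.48-fold, adjusted p 0.268) and 0.52 ± 0.25 from WT TAC (adjusted p 0.307).

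Itga6, the alpha 6 chain of a laminin receptor, had 2171.1, 2068.5, 2369.4 and 2445.7 in KO TAC hearts, against 1884.5, 1849.8, 1877.9 and 1463.7 in KO sham hearts. WT TAC hearts had 2028.6, 1933.8, 2239.6 and 1667.5, against 1937.6, 1605.6, 1666.3 and 1483.7 in WT sham hearts. The KO groups did not overlap, and 3 of the 4 WT TAC arrays were near or above the highest WT sham array. The TAC minus sham log2 difference was 0.36 ± 0.12 in KO hearts (adjusted p 0.146) and 0.23 ± 0.12 in WT hearts (adjusted p 0.68), and the interaction was 0.13 ± 0.17.

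Itga7 encodes the alpha 7 chain, the main laminin-binding alpha chain of adult striated muscle. It had 1269.2, 1222.9, 893.1 and 1185.8 in KO TAC hearts, against 1231.4, 1146.6, 1020.0 and 1344.3 in KO sham hearts. WT TAC hearts had 1186.3, 992.4, 1084.6 and 1284.5, against 1288.8, 1275.6, 1084.2 and 1122.2 in WT sham hearts. All groups overlapped, and the log2 difference of KO TAC was -0.06 ± 0.13 from KO sham, with a 95% interval of -0.339 to 0.221, and 0.001 ± 0.131 from WT TAC.

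Counted over the 9 genes, 0 were called by limma between KO TAC and KO sham, where 2.57% of all genes tested were called, and 5 had an unadjusted p under 0.05 (Tln1, Itgav, Itga6, Itgb1 and Itga5), against 16% of all genes. 7 of the 9 estimates were positive, with a median log2 difference of 0.36, beside 0.0 for all genes. 4 genes (Itga5, Itga6, Itgav and Tln1) had every KO TAC array above every KO sham array, as did 5.42% of all genes. Between KO TAC and WT TAC, 0 were called, where 2.46% of all genes were called, and 3 had an unadjusted p under 0.05 (Tln1, Itgav and Itgb5), against 16.4% of all genes. 8 of 9 estimates were positive, with a median of 0.285 beside 0.027, and 3 genes (Itgb5, Itgav and Tln1) had all KO TAC arrays above all WT TAC arrays, as did 5.13% of all genes.

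**Figure D2:**
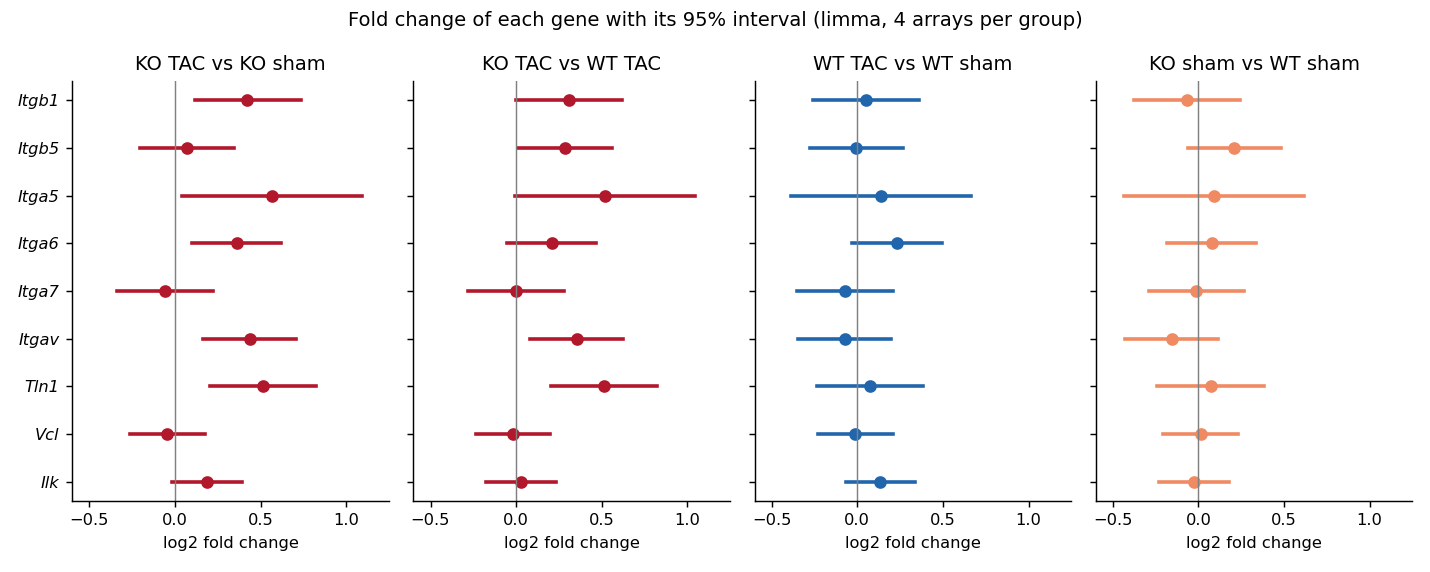
Log2 fold change (x axis) of each of the 9 genes (y axis) in 4 comparisons, with limma's 95% interval as a line. Intervals of 5 genes lie above 0 for KO TAC over KO sham, and all 9 intervals span 0 for WT TAC over WT sham and for KO sham over WT sham, with no gene passing after adjustment over all genes.

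No gene of the set was called in the other comparisons. Between WT TAC and WT sham, 0 of the 9 genes were called and 0 had an unadjusted p under 0.05, in a comparison where 0.0% of all genes were called by limma and 832 (7.62%) had an unadjusted p under 0.05. The estimates ran from -0.07 for Itgav to 0.23 for Itga6 with a median of 0.049, and the widest 95% interval, that of Itga5, ran from -0.385 to 0.663. Between KO sham and WT sham, 0 were called, beside 0.742% of all genes, and estimates ran from -0.155 for Itgav to 0.21 for Itgb5 with a median of 0.014. In the interaction 8 of the 9 estimates were positive, with a median of 0.128, but 0 genes of the set and 0.0% of all genes were called, 1128 genes had an unadjusted p under 0.05, and among the 9 these were Itgav (95% interval 0.125 to 0.891) and Tln1 (0.001 to 0.882). With limma's trend and robust options 1 gene was called between WT TAC and WT sham and 13 in the interaction, none of them among the 9.

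Several genes have more than 1 probe set, and these read different stretches of the transcripts. 19 of the 28 probe sets passed the filter on dim signals. The other 9, of Itgb1, Itga5, Itgav and Tln1, never exceeded a signal of 212.8 and were not tested. Most of these dim probe sets were lower in KO TAC, with log2 differences of -1.786 to 0.686 from KO sham and of -1.812 to 0.204 from WT TAC. Of the 19, 16 were higher in KO TAC than in KO sham, with a median log2 difference of 0.235. The median of all 20967 probe sets tested was -0.0015. Likewise 17 were higher in KO TAC than in WT TAC, with a median of 0.212, beside 0.021 for all. In WT TAC over WT sham 12 were positive, with a median of 0.073. Probe sets of 1 gene share a transcript and are not replicates.

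Fitted separately, 1 of the 19 probe sets was called between KO TAC and WT TAC, where 1.31% of all 20967 probe sets were called, and 0 between KO TAC and KO sham, where 1.14% were called. It was the Itgb1 probe set 1427771_x_at, whose suffix marks probes that may also match other transcripts. It had 1122.4, 1312.9, 1437.4 and 1377.9 in KO TAC hearts, against 847.0, 730.4, 1050.5 and 749.6 in KO sham hearts, and 887.5, 839.7, 657.2 and 856.9 in WT TAC hearts, against 919.4, 953.2, 1205.1 and 926.6 in WT sham hearts. KO TAC lay wholly above KO sham and WT TAC, and WT TAC lay wholly below WT sham. The log2 fold change was 0.70 ± 0.15 over WT TAC (limma adjusted p 0.0321) and 0.65 ± 0.15 over KO sham (adjusted p 0.0506), and the interaction was 0.95 ± 0.21 (unadjusted p 0.000415, adjusted p 0.264). The call over WT TAC held in 16 of 27 alternatives and was lost, among others, without any one of the arrays numbered 2, 3 and 4 of WT TAC or of KO TAC, with adjusted p-values of 0.061 to 0.104. With the replicate number as a block its adjusted p was 0.0686, and leaving out the 3 arrays with outlying spike-ins gave a log2 fold change of 0.53 and an adjusted p of 0.417.

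Another Itgb1 probe set, 1426918_at, did not show the difference from WT TAC. It had 1500.0, 1796.8, 2134.9 and 2057.0 in KO TAC hearts, against 1573.3, 1295.9, 1750.4 and 1402.7 in KO sham hearts, and 1882.0, 1726.4, 1764.3 and 1749.3 in WT TAC hearts, against 1398.8, 1716.9, 1672.2 and 1683.3 in WT sham hearts. KO TAC overlapped both KO sham and WT TAC, and WT TAC lay wholly above WT sham, the opposite of 1427771_x_at. Its log2 difference was 0.31 ± 0.13 from KO sham and 0.06 ± 0.13 from WT TAC. The probe sets of Itgb1 therefore gave 0.06 to 0.70 for the same contrast.

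Tln1 was also read by 1436042_at, with 979.7, 976.9, 864.6 and 660.6 in KO TAC hearts, against 700.8, 633.1, 743.1 and 809.1 in KO sham hearts, and 862.6, 800.4, 811.3 and 990.2 in WT TAC hearts, against 761.7, 595.1, 681.0 and 773.5 in WT sham hearts. On this probe set KO TAC overlapped KO sham, and WT TAC lay wholly above WT sham. The log2 difference of KO TAC was 0.26 ± 0.14 from KO sham and -0.005 ± 0.143 from WT TAC, and WT TAC was 0.30 ± 0.14 above WT sham. The separation of KO TAC from WT TAC seen on the brightest Tln1 probe set was not seen on the other one.

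The probe sets of the other genes also differed. The second Itga6 probe set, 1422444_at, was 0.225 above KO sham with no overlap, next to 0.36 for the first. The 4 Itgb5 probe sets gave log2 differences of 0.001 to 0.291 from KO sham and of 0.181 to 0.308 from WT TAC. KO TAC lay wholly above WT TAC only on 1456133_x_at and 1456195_x_at, whose suffix marks probes that may match other transcripts. On 1417533_a_at and 1417534_at KO TAC overlapped WT TAC. Vcl's dim second probe set, 1416157_at, read 183.8, 248.8, 223.3 and 360.4 in KO TAC hearts, against 186.0, 167.8, 194.8 and 197.3 in WT TAC hearts, a log2 difference of 0.40 with an unadjusted p of 0.0489, where the bright one gave -0.02. The second tested probe set of Itga5, 1458996_at, was on the other side of 0 from the first against KO sham, at -0.318 ± 0.495 next to 0.568, and was at 0.212 ± 0.495 against WT TAC. The second tested probe set of Itgav, 1432296_a_at, was at 0.235 ± 0.623 and 0.107 ± 0.623. Both were dim, with signals down to 32.3 and 26.3, and their SEs were the widest of the 19.

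**Figure D3:**
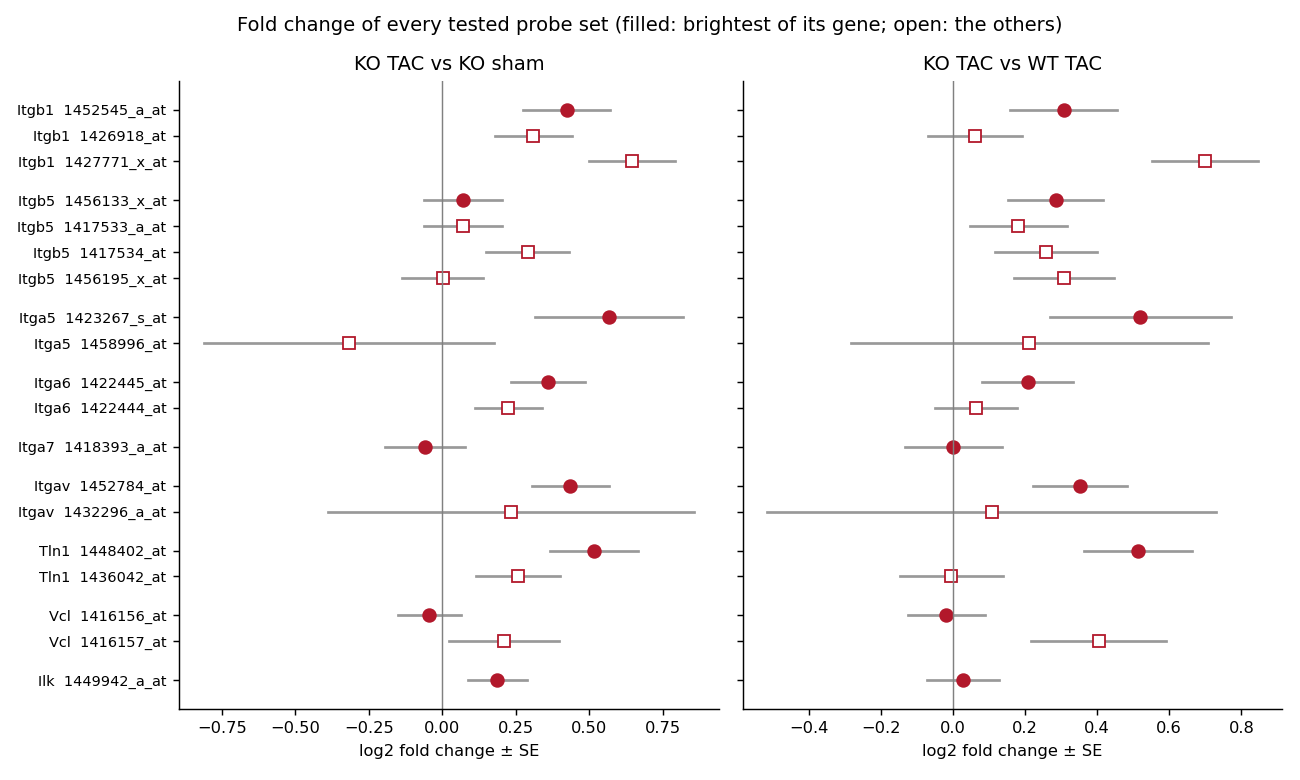
Log2 fold change ± SE (x axis) of each of the 19 tested probe sets (y axis), for KO TAC over KO sham (left) and over WT TAC (right); filled circles are the brightest probe set of a gene and open squares the others. The Itgb1 and Tln1 probe sets lie apart in the right panel, from 0.06 to 0.70 and from -0.005 to 0.513.

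Across the 16 arrays the 9 genes were only loosely tied to each other. Of 36 pairs, 8 had a Pearson r of log2 signals over 0.5 and 13 were below 0, with a median of 0.235. The highest r was 0.825, between Tln1 and Itga5 (0.697 after group means were taken out), and the lowest was -0.456, between Itgb1 and Itga7. Over all genes tested, those most like Tln1 were Samd4 (r = 0.893), Itga5 and Rnf149 (r = 0.818). The arrays share their scaling, so these coefficients are descriptions and carry no p.

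Of the lists set around the 9 genes, the matrix proteins that integrins bind held the most calls. Of 19 tested of 22 listed ligands, 7 rose in KO TAC over KO sham and none fell, with a median log2 difference of 0.466. Of all genes tested, 2.57% were called over KO sham and 2.46% over WT TAC. Periostin (Postn), a matrix protein made by activated fibroblasts, read 4212.2 to 8722.6 in KO TAC hearts, against 1110.2 to 1552.0 in KO sham hearts, a log2 fold change of 1.97 ± 0.21 (limma adjusted p 0.000278). The fibrillar collagen chain Col1a2 read 5301.2 to 6251.8 against 1970.1 to 2655.3, with 1.34 ± 0.17 (adjusted p 0.000659), and Col3a1 rose by 1.16 ± 0.18 (adjusted p 0.00284). Ccn2, a matricellular protein that binds integrins, rose by 1.77 ± 0.27 (adjusted p 0.00287), and fibronectin (Fn1) and the basement membrane collagens Col4a1 and Col4a2 passed as well. Over WT TAC 4 ligands rose and none fell, with a median of 0.283: Col1a2 by 1.04 ± 0.17, Postn by 1.04 ± 0.21, Col3a1 by 0.91 ± 0.18 and Fn1 by 0.75 ± 0.15, with adjusted p-values of 0.00376 to 0.0159. Fn1, the ligand of the Itga5 receptor, read 1307.5 to 2048.8 in KO TAC hearts, against 824.1 to 1286.2 in WT TAC hearts. No ligand was called in WT TAC over WT sham, where 0.0% of all genes were called, in KO sham over WT sham or in the interaction. Between WT TAC and WT sham, 14 of the 19 ligand estimates were positive, with a median of 0.137 and a range of -0.504 to 0.753. Postn read 2167.2 to 3083.1 in WT TAC hearts, against 1522.4 to 1609.7 in WT sham hearts. Col4a2 read 6110.9 to 7727.4 and 4090.3 to 5447.6 in these groups. Without the 3 arrays with outlying spike-ins, which leaves 2 KO TAC arrays, the calls of Col4a1 and Col4a2 over KO sham and of Col1a2, Col3a1 and Postn over WT TAC were lost. With spike-in signal added to the model, both calls of Fn1 and that of Col3a1 over WT TAC were lost. Averaging a gene's probe sets ended both calls of Fn1 and of Col1a2, and that of Col4a1. Fn1 kept its call in 27 of 30 alternatives over KO sham and in 25 of 30 over WT TAC.

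Of 28 tested of 30 listed adaptors of focal adhesions and costameres, 3 rose in KO TAC over KO sham and none fell, with a median of 0.246. Of all genes tested, 2.57% were called over KO sham and 2.46% over WT TAC. The adaptors that rose over KO sham were the actin crosslinker alpha-actinin 1 (Actn1), by 0.68 ± 0.14 (limma adjusted p 0.0176), filamin C (Flnc), a muscle crosslinker at Z-discs and costameres, by 0.65 ± 0.13 (adjusted p 0.0184), and zyxin (Zyx), which gathers at actin under tension, by 0.61 ± 0.15 (adjusted p 0.047). Over WT TAC, 3 rose and none fell, with a median of 0.163: the tensin Tns3 by 0.56 ± 0.11 (adjusted p 0.012), Flnc by 0.64 ± 0.13 (adjusted p 0.0189) and the kindlin Fermt3 by 0.76 ± 0.18 (adjusted p 0.0374). Flnc, which passed against both, read 2789.2 to 3594.7 in KO TAC, 1948.2 to 2461.7 in KO sham, 1834.9 to 2530.5 in WT TAC and 1667.2 to 2163.5 in WT sham hearts, so KO TAC lay above the other 3 groups. Fermt3 is known from blood cells, and its signal was 318.7 to 458.7 in KO TAC hearts, against 170.7 to 332.2 in WT TAC hearts. In KO sham and WT sham hearts Fermt3 read 287.3 to 379.8 and 275.6 to 336.0, so its mean was lowest in WT TAC hearts. All 6 adaptor calls were lost without the 3 arrays with outlying spike-ins, and those of Zyx and Fermt3 held in 11 of 30 and in 15 of 28 alternatives. Tns3 read 1077.8 to 1410.5 in KO TAC and 899.0 to 1099.4 in KO sham hearts. In WT TAC and WT sham hearts it read 753.6 to 831.6 and 713.8 to 859.7, so both KO groups lay above both WT groups. Averaged over its probe sets, Tns3 was at -0.048 between KO TAC and WT TAC.

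In the remaining lists no gene was called. Of 17 tested of 21 kinases and signalling proteins, 0 were called in any comparison, and the smallest p over KO sham was that of Wwtr1, the mechanosensitive coactivator TAZ, at 0.40 ± 0.11 over KO sham (adjusted p 0.0647). Of 8 tested of 19 other integrins, 0 were called, with log2 differences of -0.749 to 0.375 between KO TAC and KO sham and of -0.493 to 0.551, with a median of 0.236, between WT TAC and WT sham. Itga4, the leukocyte alpha 4 chain, was at -0.75 ± 0.24 between KO TAC and KO sham (adjusted p 0.131), and Itga1, a collagen receptor chain, at 0.38 ± 0.14 (adjusted p 0.193) in KO hearts and 0.46 ± 0.14 (adjusted p 0.58) in WT hearts. The median log2 differences of KO TAC from KO sham were 0.045 for the signalling list and -0.019 for the other integrins.

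**Figure D4:**
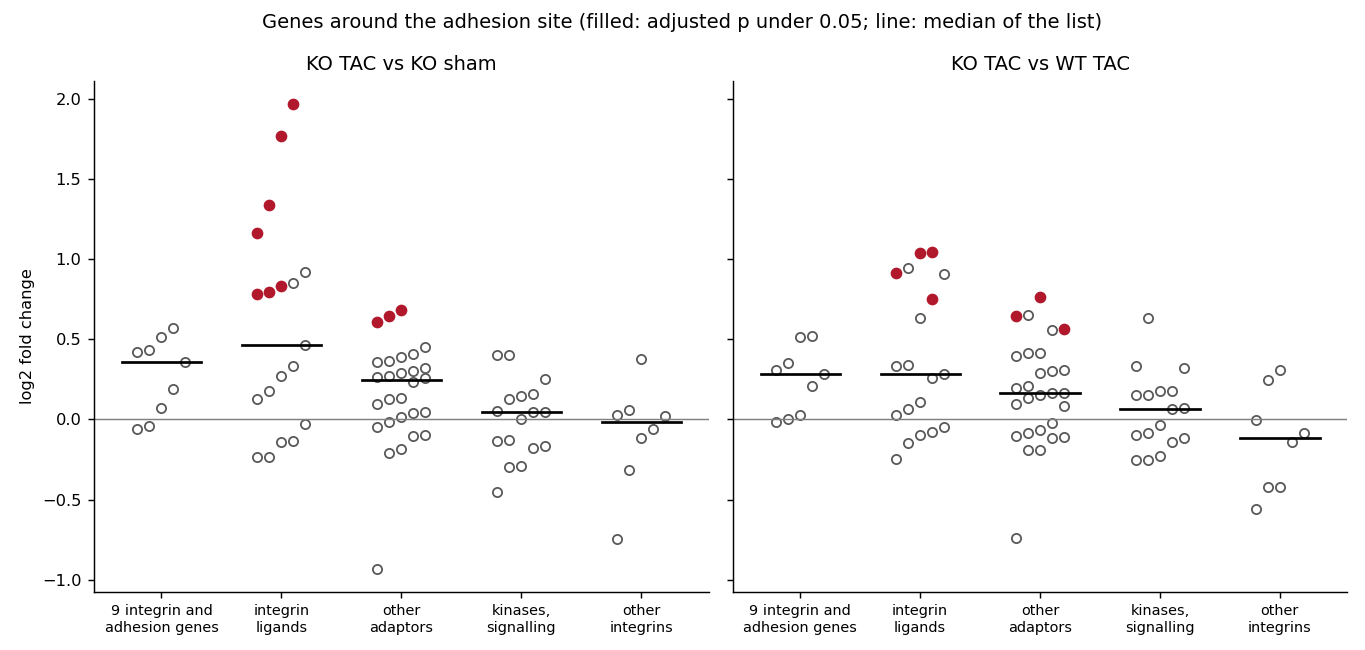
Log2 fold change (y axis) of the 9 genes and of 4 lists around them, for KO TAC over KO sham (left) and over WT TAC (right); each circle is a gene, filled where limma's adjusted p is under 0.05, and the line is the median of the list. Filled circles appear among the ligands and adaptors, and none among the 9 genes, whose medians are 0.36 and 0.285.

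A left ventricle holds several cell types, and fewer cells of a type and less RNA per cell cannot be told apart in such samples. The summed signal of 6 fibroblast markers was 43859.4 to 51081.4 in KO TAC, 34993.0 to 39394.3 in KO sham, 35531.8 to 47471.7 in WT TAC and 35796.5 to 37152.0 in WT sham hearts. Of the 6, Col1a2, which is also in the ligand list, and Lum rose in KO TAC over KO sham and over WT TAC, and none fell. The shares of all genes called in these comparisons were 2.57% and 2.46%. The summed signal of 7 cardiomyocyte markers was 372395.6 to 481743.5 in KO TAC, 449601.2 to 536719.2 in KO sham, 505323.1 to 688550.5 in WT TAC and 402343.2 to 486972.6 in WT sham hearts. None of these 7 was called, all 7 were lower in KO TAC than in KO sham and than in WT TAC, and their median log2 differences were -0.219 and -0.37. Of 6 macrophage markers, C1qa rose in KO TAC over WT TAC, and their summed signal was 14632.5 to 17838.9 in KO TAC, 13856.7 to 15064.4 in KO sham, 11170.9 to 13311.8 in WT TAC and 10557.2 to 12817.6 in WT sham hearts. In each of these 3 lists, 0 markers stayed below a signal of 100 on all arrays. The part of these cell types in the values of the 9 genes and of their ligands was not tested.

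Among the other marker lists, no endothelial, smooth muscle and pericyte, platelet or atrial marker was called in any comparison. Of 2 tested skeletal muscle markers, Acta1, also a gene of the stressed heart, rose in KO TAC over KO sham, where 2.57% of all genes were called. Summed over 4 skeletal muscle markers, signals were 45583.2 to 68732.3 in KO TAC and 10746.2 to 26954.8 in KO sham hearts. They were 33091.3 to 67596.4 in WT TAC and 16553.5 to 33076.0 in WT sham hearts. The red blood cell marker Alas2 rose in KO TAC over WT TAC, where 2.46% of all genes were called. Summed over 2 red blood cell markers, signals were 830.1 to 977.3 in KO TAC, 272.0 to 636.0 in WT TAC and 527.7 to 888.2 in WT sham hearts. 4 lymphocyte markers had a probe set and none passed the filter on dim signals, with summed signals of 244.8 to 635.2 over all arrays. Atrial markers summed to 253.6 to 26325.3 over the arrays, with the widest range in KO sham hearts, 1322.3 to 26325.3.

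**Figure D5:**
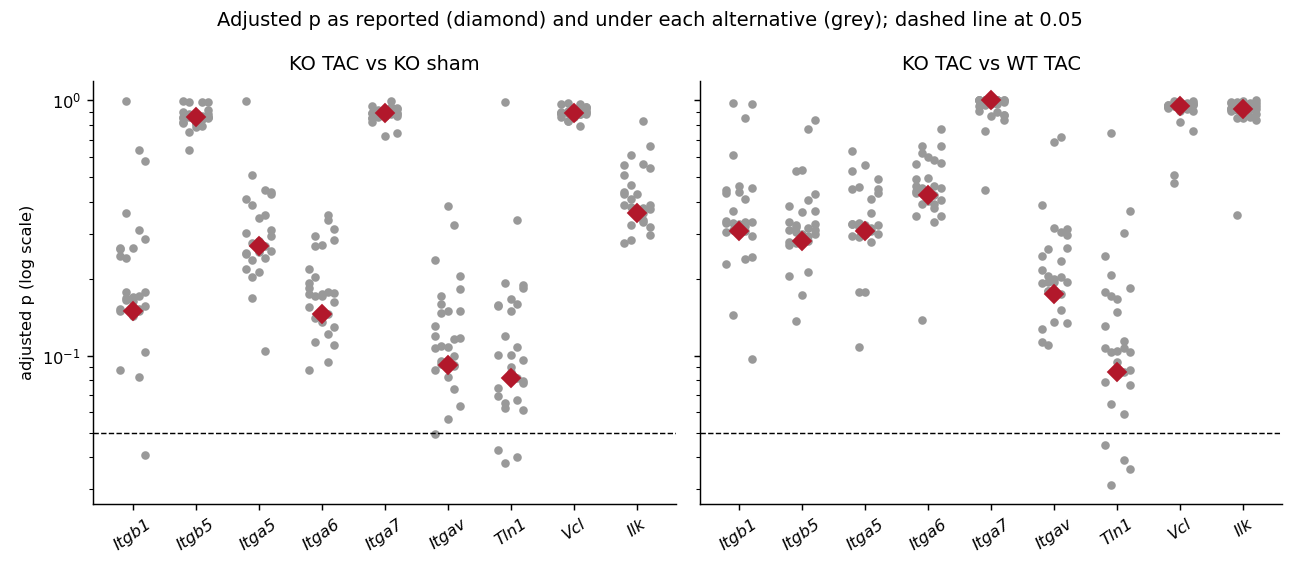
Limma adjusted p (log axis) of each of the 9 genes as reported (diamonds) and under up to 30 alternative settings (grey dots), for KO TAC over KO sham (left) and over WT TAC (right). Below the dashed line at 0.05 lie a few settings of Tln1, and on the left also 1 of Itgav and 1 of Itgb1.

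How near the genes stood to the threshold differed. Averaging all probe sets of a gene took the log2 difference from KO sham to 0.036 for Tln1, 0.008 for Itgb1 and 0.018 for Itga5, against 0.293 for Itga6. Tln1 was called against KO sham under 3 of the alternatives and against WT TAC under 4, with adjusted p-values of 0.0379 to 0.982 and of 0.0313 to 0.744 over all alternatives. Without the 3 arrays with outlying spike-ins its log2 difference was 0.49 ± 0.18 from KO sham and 0.57 ± 0.19 from WT TAC, close to the values with them, with adjusted p-values of 0.34 and 0.301 over the fewer arrays. Itgav moved to 0.38 ± 0.16 and 0.25 ± 0.16 without them. Without WT TAC replicate 3, 5 genes in place of 3 had all KO TAC arrays above all WT TAC arrays, Itga5 and Itga6 joining the others. Leaving out an array can only keep or raise such a count, so no conclusion is drawn from this rise.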

How the data were processed

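Total RNA from left ventricle was extracted with Trizol and labelled with biotin in one cycle, per the labels' protocols. The authors deposited linear signal intensities. The submitters' processing notes name GCOS 1.4. Its settings are not given in the sources used. The arrays had been scaled alike: the mean between the 2nd and 98th percentiles was 499.6 to 500.0. Scaling sets each array's mean, so a change in many bright genes moves others the other way.

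Of 45101 probe sets, 34945 had 1 gene symbol. Signals were floored at 11.9 (10th percentile) and log2-transformed, each gene was read by its brightest probe set, and the dimmest 40% were left out, leaving 10916 of 18193 genes. limma 3.58.1 in R 4.3.3 fitted 1 mean per group over all 16 arrays, two-sided, with Benjamini-Hochberg adjustment over all genes, and was tested on simulated data. The number of arrays limits the precision. Samples were grouped by title. Same-numbered arrays were not treated as pairs (r of -0.1853 to 0.137). All 10 genes and, of each list, up to 4 called genes, else 2, with the smallest p were named. The members and lists were chosen with earlier results of these data known.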

Additional observations from a re-analysis of the deposited data

Results flagged for a closer look

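Of 76 groups of 4 arrays examined, over the 19 tested probe sets, 5 held an array far from the other 3, by Dixon's criterion at 95%. Chance flags about 1 in 20 groups. For Itga6 1422445_at, KO sham replicate 4 read 1463.7, below the others at 1849.8 to 1884.5, and this array enters the KO TAC comparison above. Without this array the Itga6 interaction was 0.039 ± 0.164 (SE), next to 0.128 ± 0.172 with it. For Itgb1 1426918_at, WT sham replicate 1 read 1398.8, below the others at 1672.2 to 1716.9. For Itgb1 1427771_x_at, WT sham replicate 3 read 1205.1, above the others at 919.4 to 953.2. For Itgb5 1456195_x_at, WT sham replicate 1 read 1271.3, above the others at 857.2 to 893.6. For the dim Itga5 1458996_at, WT sham replicate 1 read 39.9, below the others at 132.9 to 144.0. The WT sham arrays hold 4 of the 5, of which 3 are replicate 1.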

How the results depend on the processing

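The number of the 9 genes called between KO TAC and KO sham, 0, became 2 with the dimmest 60% of genes left out (Itgav and Tln1, adjusted p 0.0492 and 0.0428, with fewer genes tested). It became 1 with limma's trend and robust options (Tln1, 0.0402). Of all genes tested, 391 of 7277 and 426 of 10916 were called in these settings, against 280 of 10916 as reported. With single arrays left out the number of the 9 ranged from 0 to 1: Tln1 was called without WT TAC replicate 1 (0.0379) and Itgb1 without KO TAC replicate 1 (0.0407). Of all genes, 250 and 274 were called without these arrays. Between KO TAC and WT TAC the number of the 9 became 1 with arrays centred on their medians (Tln1, 0.0313), the dimmest 60% left out (Tln1, 0.0448), every probe set fitted separately (Itgb1), the trend and robust options (Tln1, 0.0392) and array weights (Tln1, 0.036). In the order of these settings, the calls among all genes or probe sets were 278 of 10916, 355 of 7277, 275 of 20967, 424 of 10916 and 288 of 10916. As reported, 268 of 10916 were called. The number of the 9 stayed 0 with any single array left out. In the other comparisons and the interaction it stayed 0 throughout.

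Genes without overlap between KO TAC and WT TAC, 3, numbered 5 with arrays centred on their medians. Quantile normalization gave 2 (Itgb5 and Tln1), and leaving out _x_at and _s_at probe sets gave 2 (Itgav and Tln1). The count was 5 without the 3 arrays with outlying spike-ins and 5 without WT TAC replicate 3. Leaving arrays out can only keep or raise such a count. With all probe sets of a gene averaged it was 1. Between KO TAC and KO sham that average gave 1 (Itga6) in place of 4. Leaving out _x_at and _s_at probe sets gave 3 there (Itga6, Itgav and Tln1). Between WT TAC and WT sham the average gave 1 (Vcl, lower in WT TAC) in place of 0. The share of all genes under these settings is not given here. These alternatives were chosen after seeing the data.

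Averaging all probe sets, dim ones included, took the differences of KO TAC from KO sham to 0.036 for Tln1, 0.008 for Itgb1 and 0.018 for Itga5, and those from WT TAC to 0.237 for Tln1 and 0.019 for Itgb1, and Itgav did not pass the filter on dim genes. It also reversed Itga5 between KO TAC and WT TAC (-0.345) and in the interaction (-0.379), Tln1 in the interaction (-0.058) and Tns3 between KO TAC and WT TAC (-0.048). The spike-in signal as a covariate reversed Itgb1 in the interaction (-0.02). The cause was not tested. Of 45 values, 21 changed sign within 1 SE of 0. With median centring the median of all genes was 0.126 for KO TAC over KO sham, beside 0.00026 as reported. For KO TAC over WT TAC it was 0.218, beside 0.027, and for WT TAC over WT sham -0.12, beside -0.00032.

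Whether replicate numbers pair the arrays was not settled: 5 of 24 same-numbered pairs had r over 0.1, and 7 of 16 arrays correlated best with their own number. The share of pairs with r over 0.1 was smaller among differently numbered arrays, whose r ran from -0.1373 to 0.1497. With a replicate block 0 of the 9 genes were called in any comparison, and Tln1 had an adjusted p of 0.0626 against KO sham.

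Over KO sham, Postn, Ccn2 and Col3a1 kept their calls in 30 of 30 alternatives, Actn1 in 23, Flnc in 19 and Zyx in 11. Over WT TAC, Tns3 kept its call in 26 of 30, Flnc in 20 of 30 and Fermt3 in 15 of 28. Left out singly, 2 arrays ended the call of Actn1 (KO sham 2 and KO TAC 2) and 12 that of Zyx (all WT sham and KO sham arrays, WT TAC 2 and KO TAC 2, 3 and 4). For Flnc over KO sham these were KO TAC 2, 3 and 4 and KO sham 2 and 3, and for Col4a1 KO TAC 1, 2 and 3 and KO sham 3 and 4. Over WT TAC they were KO TAC 2 and 3 and WT TAC 2 and 4 for Flnc, KO TAC 1, 2 and 3, WT TAC 1, 3 and 4 and WT sham 2 and 4 for Fermt3, KO TAC 3 and WT TAC 4 for Fn1, and WT TAC 4 for Postn. The filter and the number of arrays limit what can be called here, and no detection calls were used.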
